A study of Mus musculus with 27 samples.

Results

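RNA was compared between the injected brain hemispheres of mice given R33 and of mice given vehicle. The comparison takes every library labelled as the injected hemisphere of an R33 mouse (5) and of a vehicle mouse (4), 1 library per mouse, 9 of the 27 libraries of the series. R33 is a small molecule that the study uses as a pharmacological chaperone of retromer. The mice were female 5xFAD mice on a C57BL/6 background, 16 weeks old, and both groups carried the transgenes. The transgenes include human APP with familial Alzheimer mutations and are driven by the Thy1 promoter, which is active mainly in neurons. The R33 mice received 500 nL of a 10 mM solution in the lateral parietal association cortex, the vehicle mice the same volume of the same DMSO and sulfobutylether β-cyclodextrin solvent without drug, and tissue was taken 24 h later. Mice are named by the letters of their labels: K, AE, O, N and AD received R33 (AD is a label, not the disease), and J, M, L and AH received vehicle.

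Retromer is a complex of VPS35, VPS29 and a VPS26 subunit on the cytosolic face of endosomes. It returns membrane proteins to the trans-Golgi network or the cell surface, among them receptors that carry the amyloid precursor protein (APP) or lysosomal enzymes. Where this return is slowed, APP spends longer in endosomes that hold the β-secretase BACE1. The comparison asks which transcripts differed in the tissue around an injection of the chaperone, relative to an injection of the solvent.

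Deposited values are FPKM, the fragments counted on a gene per kilobase of its length, scaled by the total counted in the library. Libraries held 20187307 to 33813660 fragments on genes, and this depth did not differ between the groups beyond its spread (two-sided exact permutation p = 0.9603). At the median depth 1 fragment on a gene of 2000 bp is 0.01755 FPKM. limma was run on log2(FPKM + 1) for the 13004 genes whose mean in these 9 mice reached 1 FPKM. A log2 fold change is R33 minus vehicle on that scale, given with its standard error (SE) or 95% interval, and a gene is called at an adjusted p under 0.05. SD is the standard deviation over mice.

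The blocks carried cortical RNA in all 9 mice, with varying amounts from neighbouring structures. Slc17a7, the vesicular glutamate transporter of cortical excitatory neurons, lay between 312.3 FPKM in mouse O and 567.6 FPKM in mouse M. Markers of choroid plexus and ependyma, the tissues that line the ventricles, summed to 1092.9 FPKM in K, 1688.2 in N and 159.86 in L, and to between 9.15 and 36.6 in the other 6 mice. Their most abundant gene was Ttr, and all 8 tested members had a higher mean after R33 (median log2 fold change 1.04, without AD 1.22). Striatal markers summed to 481.5 FPKM in N and 313 in L against 77.8 to 136.8 elsewhere, with Ppp1r1b the most abundant. Hippocampal markers, led by C1ql2, summed to between 41.5 and 72.0 FPKM in K, AE, O, J and M and to between 6.98 and 13.5 in N, AD, L and AH. Thalamic markers, led by Slc17a6, summed to 104.9 FPKM in J and 59.8 in O, and to between 19.3 and 28.7 in the others. These regional differences fell on mice of both groups, except that 2 of the 3 blocks rich in choroid plexus RNA came from R33 mice. In such bulk tissue fewer cells of a type and less RNA per cell cannot be told apart, and the part of dissection in any result was not tested.

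**Figure D1:**
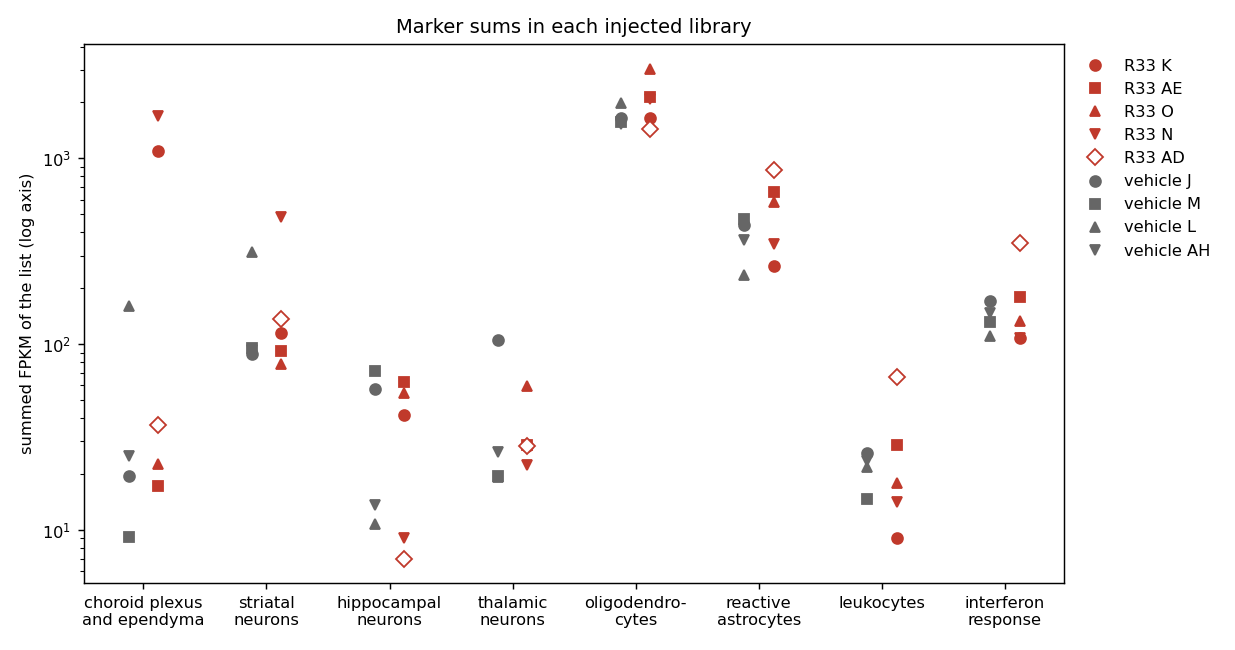
Summed FPKM of marker lists (log axis) in each injected library, R33 mice in red and vehicle mice in grey, 1 symbol per mouse. Choroid plexus markers stand out in K and N, striatal markers in N and L, and markers of leukocytes, reactive astrocytes and interferon response are highest in AD.

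The library of R33 mouse AD stood apart from the other 8. Its Pearson correlation with them over the tested genes was 0.947 to 0.967, against 0.973 to 0.9905 among the 28 pairs of the others. Of its genes 23.35% lay more than 0.5 from the median of the 9 mice on the log2 scale, against 1.6 to 6.13% in the others. The deviation followed gene length. In AD the median deviation was 0.58 for the genes in a length bin with a median length of 868 bp and -0.40 for the bin with a median of 8320 bp. Across genes, which are not independent replicates, the Spearman correlation of its deviation with length was -0.681, and in the other 8 libraries it ran from 0.006 to 0.234. The contralateral library of the same mouse had -0.512. AD also held the highest sums of several tissue response lists. Reactive astrocyte genes, led by Gfap, summed to 870.7 FPKM against 234.6 to 655.4 in the others, interferon response genes, led by Ifitm3, to 351 against 108.1 to 180.4, and leukocyte and border macrophage markers, led by Cd74, to 66.3 against 9.04 to 28.7. Most differences are therefore given with and without AD.

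**Figure D2:**
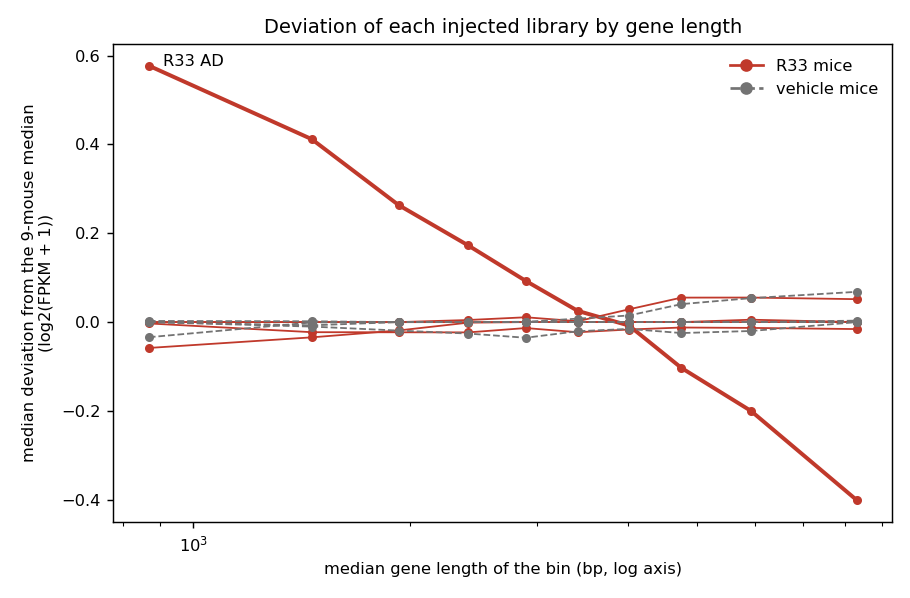
Median deviation of each injected library from the median of the 9 mice (log2(FPKM + 1)) in 10 bins of gene length (bp, log axis), R33 mice in red and vehicle mice in grey and dashed. AD runs from 0.58 in the bin of the shortest genes to -0.40 in that of the longest, while the other 8 libraries stay between -0.06 and 0.07.

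No gene was called between R33 and vehicle. Transcripts that stood higher in all 5 R33 mice than in all 4 vehicle mice included Nqo1, a cytosolic quinone reductase of the antioxidant response, Acaa2, the thiolase of mitochondrial fatty acid oxidation, and Ggh, a lysosomal hydrolase of folate polyglutamates. Those lower in all R33 mice included Sorl1, a sorting receptor that binds both retromer and APP, and Cd276, an immune checkpoint protein of the B7 family. The genes of the retromer core lay within 0.10 of their vehicle means on the log2 scale. In the limma fit 0 of 13004 genes were called (0%, smallest adjusted p = 1). At an unadjusted p under 0.05 there were 108 genes higher (0.831%) and 49 lower (0.377%), and without AD 147 and 119. Where no gene differed, that threshold would pass a share of about 0.05, more than was seen here. Whatever their p, 6849 genes had a higher mean after R33 and 6155 a lower mean (52.7% higher, and 46.6% without AD), which is the background for the counts in lists below. The groups did not overlap at 36 genes in the higher direction (0.277%) and 14 in the lower (0.108%), of which 23 and 9 also had an unadjusted p under 0.05. The 95% interval of a gene reached a median of 0.27 to either side of its log2 fold change, and 0.47 at the 90th percentile of genes. The fold changes followed gene length (Spearman -0.452 across genes), and did not without AD (0.0545).

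Nqo1 had the largest difference among the protein-coding genes without overlap. It measured 3.73 FPKM in K, 4.21 in AE, 5.04 in O, 5.18 in N and 5.21 in AD, and 2.18 in J, 2.70 in M, 2.91 in L and 2.68 in AH. Every R33 mouse was above the highest vehicle mouse, and AD was not apart from N. The means were 4.67 ± 0.67 FPKM (SD, n = 5) after R33 and 2.62 ± 0.31 (SD, n = 4) after vehicle, a log2 fold change of 0.65 (SE 0.11, 95% interval 0.40 to 0.89, adjusted p = 1). It was 0.61 without AD and stayed within 0.58 to 0.71 whichever mouse was left out. In the contralateral hemispheres the Nqo1 difference was 0.15, and the difference between the hemispheres was 0.50 (SE 0.21, adjusted p = 1). Nqo1 lies on chr8:108113835-108129934 (GRCm39, minus strand), and no other annotated gene overlaps it.

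The Nqo1 promoter is shown because of the size of its difference among the coding genes without overlap, while Aqp1, Igf2, Cox8b and Cox6b2, given below, had larger differences with overlap. It is the RefSeq window from 250 bases before to 50 bases after the start, chr8:107403156-107403455 on the minus strand of GRCm38.p6, with the match to the TATA box letters TATAAA in capitals.
Nqo1: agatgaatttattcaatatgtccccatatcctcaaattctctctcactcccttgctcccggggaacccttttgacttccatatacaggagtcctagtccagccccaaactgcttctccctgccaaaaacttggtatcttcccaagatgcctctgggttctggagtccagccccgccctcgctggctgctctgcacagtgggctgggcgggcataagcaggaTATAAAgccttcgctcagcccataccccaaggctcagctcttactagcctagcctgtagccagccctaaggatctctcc
The match begins 29 bases before the start. TATAAA was searched on both strands and occurs in 13.6% of the 32851 promoter windows of that table. The core of the antioxidant response element, TGACNNNGC, occurs in 12.4% of them, 0 times in the window of Nqo1 and 1 time in that of Rom1. A match or its absence describes these letters in this window and no more. Of the 18 genes named by size and non-overlap, 11 have a window that was searched.

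Besides Nqo1, 9 genes are named here as higher after R33, those with the largest log2 fold change among genes without overlap and with an unadjusted p under 0.05. Acaa2 measured 14.2 to 23.3 FPKM in R33 mice, highest in AD, and 11.4 to 13.8 in vehicle mice, a log2 fold change of 0.49 (without AD 0.38). Rom1, a tetraspanin best known from photoreceptor discs, had 6.09 ± 1.16 FPKM against 4.07 ± 0.62 (0.48, without AD 0.39). Ggh had 12.2 ± 1.54 against 9.10 ± 0.86 (0.39, without AD 0.33). Slc31a1, the high-affinity copper importer, had 7.87 ± 1.5 against 5.87 ± 0.21 (0.35, without AD 0.34). It measured 10.02 FPKM in N, 8.22 in AD and 8.20 in K, and 6.70 in O and 6.23 in AE. K and N held the most choroid plexus RNA, and its part in this difference was not tested. Rilp, an effector of the late endosomal GTPase RAB7, had 1.31 ± 0.13 against 0.82 ± 0.08 (0.34, both with and without AD). Pxmp2, a channel of the peroxisome membrane, was 0.37 with AD at 7.23 FPKM and 0.25 without AD, with the other R33 mice at 4.31 to 4.62 FPKM. The RNA-binding protein gene Rbpms2 (0.33, without AD 0.29) and Nat8f5 (0.48, without AD 0.45) complete the coding genes. Nat8f5 overlaps Nat8f6 on the same strand, so fragments of the 2 genes can be mixed. The same holds for Scarna2 with Gm65135, and among the lower genes for Nwd2 with Gm3687 and A330040F15Rik with Gm16274. Scarna2, a small Cajal body RNA with a length of 61 bp in the table, was 0.68 (without AD 0.67) beside the injection but -1.35 contralaterally, and such short RNAs are poorly captured by libraries of polyadenylated RNA.

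Of the genes lower after R33 and chosen in the same way, Nwd2 had 3.77 ± 0.53 FPKM after R33 and 5.44 ± 0.71 after vehicle (-0.43, without AD -0.40), with J highest at 6.50 FPKM. Cd276 had 3.56 ± 0.27 against 4.61 ± 0.41 (-0.30, without AD -0.26). Slc7a4, annotated by homology with the cationic amino acid transporters, had 13.2 ± 1.22 against 15.8 ± 1.23 (-0.24, without AD -0.21). The remaining coding genes were Usp43, a ubiquitin-specific protease (-0.29, without AD -0.34), Slc37a1, a sugar phosphate transporter (-0.25, without AD -0.27), and the zinc finger gene Zcchc2 (-0.21, without AD -0.17). A330040F15Rik was -0.43 (without AD -0.46). Snord49b, a small nucleolar RNA of 63 bp, was -0.99 (without AD -1.09), ranging from 4.40 FPKM in AH to 0 in O, and it lies within 2410006H16Rik on the same strand.

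**Figure D3:**
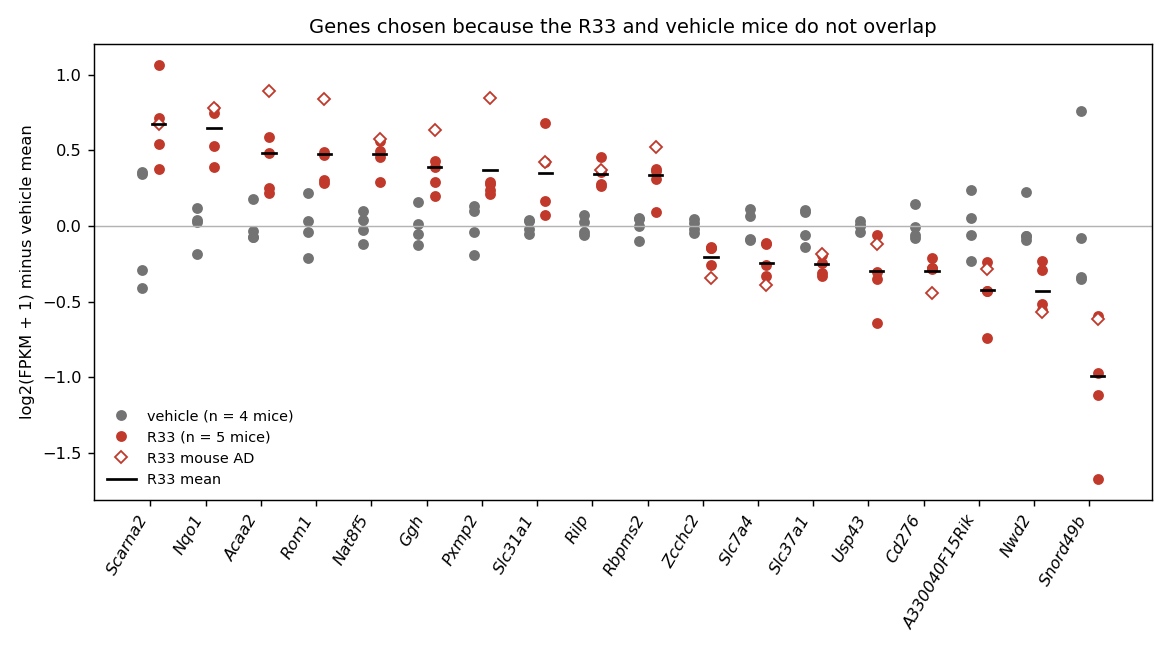
log2(FPKM + 1) minus the vehicle mean for 18 genes chosen because the groups do not overlap and the unadjusted p is under 0.05, 1 point per mouse, R33 in red (AD as open diamonds), vehicle in grey, black bars at the R33 mean. The separation of the groups follows from the choice, and the R33 mean of Nqo1 is 0.65 above vehicle.

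The retromer core itself did not differ beyond the spread between mice. Vps35, the scaffold subunit that R33 is meant to stabilise as a protein, measured 59.3 FPKM in K, 54.6 in AE, 57.2 in O, 60.9 in N and 57.5 in AD, and 60.03 in J, 58.7 in M, 54.0 in L and 50.6 in AH. The groups overlapped, and the log2 fold change was 0.05 (95% interval -0.13 to 0.24, without AD 0.06). Vps29 was 0.09 (95% interval -0.18 to 0.37), Vps26a 0.06 and Vps26b -0.05, with 0.05, 0.01 and -0.01 without AD. The median of the 4 core genes was 0.06 (without AD 0.03), against 0.01 (without AD -0.01) over all tested genes. Snx3, a sorting nexin that recruits retromer, had 166.1 FPKM in AD and 113.0 to 120.0 in the other 8 mice, so that its difference was 0.10 with AD and 0.00 without. Of the 4 genes that recruit or release retromer, Rab7 was 0.07, Snx27 -0.02 and Tbc1d5, which releases it, 0.00, and without AD they were 0.03, 0.03 and 0.09 (median 0.03 with and without AD). Of the 9 genes of the SNX-BAR nexins and the WASH complex, which bend and pull the endosome membrane, 7 were higher and 2 lower with a median of 0.13 (without AD 0.05), led by Snx5 at 0.19 (without AD 0.09).

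Receptors that are sorted at the endosome had lower means after R33. Sorl1 measured 34.8 FPKM in K, 32.6 in AE, 38.75 in O, 33.9 in N and 15.2 in AD, and 38.80 in J, 39.3 in M, 41.6 in L and 39.7 in AH. All R33 mice were below all vehicle mice, O at the border and AD far below the rest. The log2 fold change was -0.41 (95% interval -0.91 to 0.09), and -0.18 without AD, and Sorl1 did not reach an unadjusted p under 0.05. In the contralateral hemispheres, with AD included, the Sorl1 difference was -0.35. Sorcs3, a neuronal relative of Sorl1, had 8.06 ± 1.65 FPKM against 10.9 ± 2.07 (-0.40, without AD -0.27, unadjusted p under 0.05), with overlap between O at 9.16 and AH at 8.89. Sort1 was -0.28 and -0.01 without AD, which had 42.2 FPKM against 100.4 to 122.0 in the other mice. Lrp1, a large endocytic receptor of neurons and glia, was -0.29 (without AD -0.15). All 11 tested receptors had a lower mean (median -0.23), and 8 of 11 without AD (median -0.10). With the length trend removed the median was -0.15. The list has a median length of 8349 bp, in the range where the deviations of AD were negative.

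The 4 Vps13 genes, which encode bridge-like lipid transfer proteins between organelles, also had lower means. Vps13a was -0.18, Vps13b -0.17, Vps13c -0.16 and Vps13d -0.18, and without AD they were -0.10, -0.05, -0.03 and -0.08. Their median length was 13740 bp. With the trend on gene length removed from each library the median was -0.02 in place of -0.17. In the contralateral hemispheres, with AD and with that trend in place, the median was -0.29. Vps13a was -0.11 there, Vps13b -0.21, Vps13c -0.43 and Vps13d -0.36. App measured 372.5 FPKM in AD and 642.8 to 806.9 in the other 8 mice, a log2 fold change of -0.18 that was 0.00 without AD. How fragments of the human transgenes were assigned to genes is not given in the sources used here. Bace1 was -0.11 (without AD 0.03). Of the 9 tested genes of the amyloid precursor and its secretases 3 were higher and 6 lower, and without AD 7 and 2 (medians -0.07 and 0.03). Of the 20 lysosome and autophagy genes 13 were higher and 7 lower, with a median of 0.04 (without AD 0.01). Lamp1, a main protein of the lysosomal membrane, was 0.07 (95% interval -0.20 to 0.34, without AD 0.15) and Sqstm1, an autophagy receptor, 0.06 (95% interval -0.20 to 0.32, without AD -0.01).

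**Figure D4:**
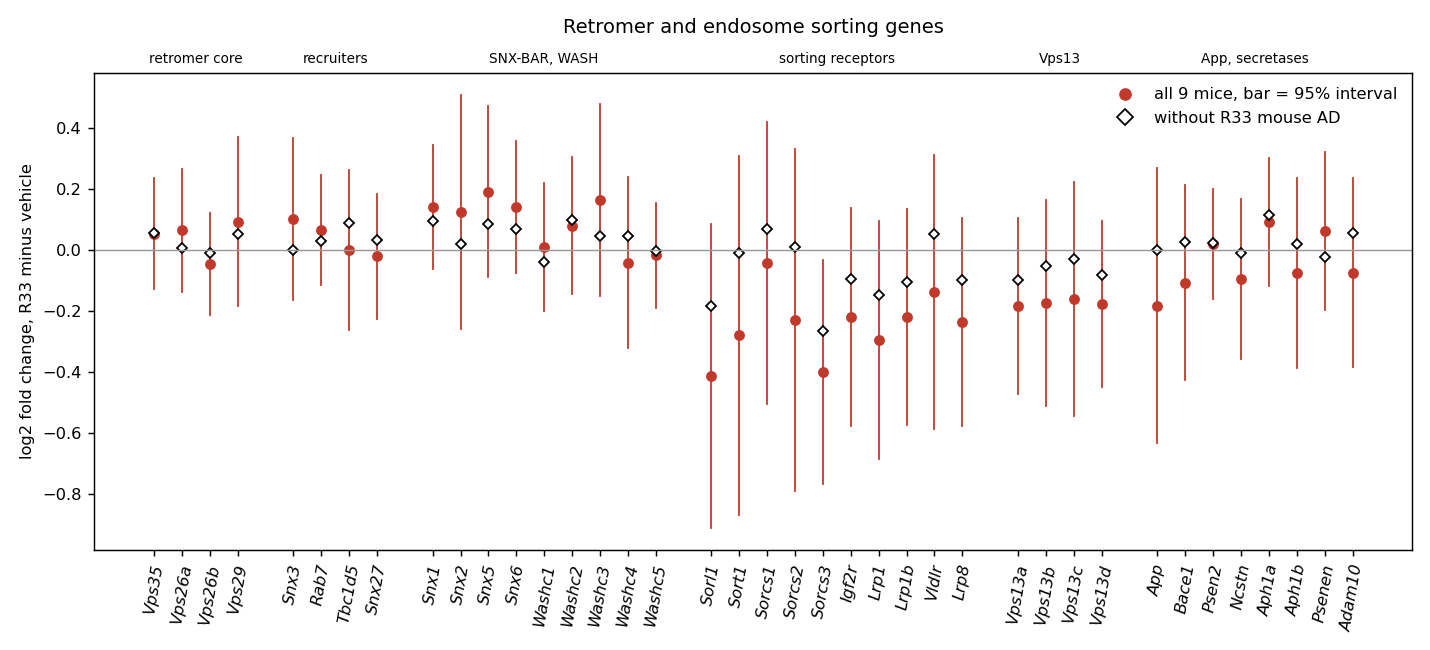
log2 fold change, R33 minus vehicle, of retromer, sorting, Vps13 and amyloid genes: red points with 95% intervals from all 9 mice, open diamonds without AD. The retromer core lies between -0.05 and 0.09, and the sorting receptors lie between -0.41 and -0.04, moving toward 0 without AD.

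Among neuronal genes, the endoplasmic calcium release channel Ryr2 and the guidance receptor Plxna2 reached an unadjusted p under 0.05. Ryr2 measured 9.84 FPKM in K, 8.99 in AE, 9.95 in O, 9.56 in N and 7.80 in AD, and 11.6 in J, 12.7 in M, 12 in L and 9.54 in AH. Only vehicle mouse AH lay within the R33 range. The log2 fold change was -0.28 (95% interval -0.51 to -0.05), -0.23 without AD and -0.12 with the length trend removed. In the contralateral hemispheres, with AD and with the length trend in place, the Ryr2 difference was -0.45. The voltage-gated calcium channel genes were lower as well, Cacna1c at -0.29, Cacna1d at -0.22 and Cacna1e at -0.35, and without AD -0.16, -0.12 and -0.13, all with overlap between groups. Of the 27 tested genes of calcium channels, stores, pumps and calmodulin 22 were lower (median -0.17), and 17 without AD (median -0.05). Calml4, the member with the largest positive difference, was 0.89 (without AD 0.97) and did not reach an unadjusted p under 0.05. The list was set by function and not by cell type, and the part of choroid plexus RNA in Calml4 was not tested. Plxna2, a semaphorin receptor, was -0.40 (without AD -0.24), and all 13 axon guidance genes had lower means (median -0.16), against 9 of 13 without AD (median -0.04).

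Most synaptic genes also had lower means. Of the 18 glutamate receptor genes, counted with Grip1, 17 were lower with a median of -0.17, and without AD 10 were lower with a median of -0.02. Gria1, an AMPA receptor subunit, ranged from 36.3 FPKM in AD to 136.6 in M, with a log2 fold change of -0.08 (95% interval -0.95 to 0.78) that was 0.18 without AD and ran from -0.30 to 0.18 over the fits that leave out 1 mouse. The 5 mice with the larger hippocampal marker sums (K, AE, O, J and M) had 88.6 to 136.6 FPKM of Gria1, and the other 4 had 36.3 to 60.1, and the part of hippocampal tissue in this value was not tested. Grin2b, an NMDA receptor subunit, was -0.43 (without AD -0.10), and Grip1, a scaffold of AMPA receptors, -0.12 (without AD -0.10). Scaffolds of the active zone and the postsynaptic density had 15 of 18 genes lower (median -0.12), and 16 without AD (median -0.07). Bsn, a giant protein of the active zone, was -0.45 (without AD -0.24), and Dlg4, which encodes PSD-95, 0.00 (without AD -0.05). Of the 14 genes of synaptic vesicles and exocytosis 12 were lower both with and without AD (median -0.08 in both), among them the vesicle protein genes Syn2 (-0.20, without AD -0.19) and Syp (-0.07 in both). None of the genes of these 3 lists had an unadjusted p under 0.05. The same held for the neuronal markers, whose counts and medians are given for comparison. Cortical excitatory markers were lower for 10 of 13 genes (median -0.14, without AD -0.08), and interneuron markers were higher for 6 of 11 (median 0.12, without AD -0.01). The part of neuronal content in these values was not tested.

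Immediate early genes, which neurons switch on within minutes of activity, were lower for 20 of 21 members, and for 20 of 21 without AD. Their median was -0.13, and -0.22 without AD, since AD held high values such as 21.7 FPKM of the phosphatase gene Dusp1 against 8.09 to 10.8 in the other R33 mice. Vehicle mice had 11.3, 10.9, 14.9 and 15.5 FPKM of Dusp1 in J, M, L and AH, a log2 fold change of -0.22 with AD and -0.45 without. Egr3, an activity-regulated transcription factor, was -0.33 (95% interval -0.72 to 0.07, without AD -0.27), and Arc, a regulator of AMPA receptor endocytosis, -0.10 (without AD -0.34). The exception was Nr4a2 at 0.18 (without AD 0.40). None of the 21 had an unadjusted p under 0.05, and the median in the contralateral hemispheres was 0.02.

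Genes that vary with the hour of the day and with stress hormones were higher in part. Of the 15 clock genes 11 were higher (median 0.12), and 12 without AD (median 0.12). Cry1, a repressor of the clock, was 0.25 with an unadjusted p under 0.05 (without AD 0.19). Dbp, an output gene of the clock, ranged from 14.3 FPKM in J to 61.1 in AD, with 50.3 in vehicle mouse AH (0.60, 95% interval -0.21 to 1.42, without AD 0.45). Arntl, an activator of the clock, was -0.28 (without AD -0.23). Of the 10 tested genes that glucocorticoids induce in brain 8 were higher (median 0.10), and 7 without AD (median 0.10). Tsc22d3 measured 23.3 ± 2.65 FPKM after R33 and 18.3 ± 2.89 after vehicle, a log2 fold change of 0.34 (95% interval 0.08 to 0.60, without AD 0.27) with an unadjusted p under 0.05, and Sgk1 was 0.27 (without AD 0.25, unadjusted p under 0.05). Both differences had the same sign in the contralateral hemispheres, where Tsc22d3 was 0.50 and Sgk1 0.24. The labels give no hour of dissection, and its part was not tested.

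Microglial and inflammatory genes mostly had higher means after R33, and for several lists this rested on AD. None of the tested genes of the lists in this paragraph had an unadjusted p under 0.05. Of the 22 genes of disease-associated microglia 18 were higher (median 0.13), and 19 without AD (median 0.08). The R33 mice were split, with a mean log2(FPKM + 1) of that list of 5.22 in K and 5.40 in N, and 5.97 to 6.06 in AE, O and AD. Vehicle mice had 5.31 to 5.88. Fth1, the ferritin heavy chain, was 0.33 (95% interval -0.09 to 0.75, without AD 0.21), and Spp1, which encodes osteopontin, was 0.58 with AD and 0.04 without. Homeostatic microglial genes were higher for 8 of 11 (median 0.09, without AD 0.01), with Csf1r at -0.14 (without AD -0.06). Interferon response genes were higher for 17 of 18 with AD (median 0.17) and for 5 of 18 without (median -0.07). Ifitm3, an antiviral membrane protein, had 123.4 FPKM in AD and 24.7 to 51.2 in the other 8 mice. Complement genes had a median of 0.14 (7 of 9 higher, without AD 0.04), with C1qa at 0.23 (without AD 0.07). Cytokine, chemokine and NF-kB genes had a median of 0.07 (12 of 18 higher, without AD -0.02). In that list Stat3 was 0.00, Stat6 0.07, Il4ra -0.05, Il13ra1 0.13, Nfkb2 0.10 and Il1a 0.08, and without AD they were -0.02, 0.00, -0.07, 0.04, 0.00 and 0.01. In the contralateral hemispheres the medians were -0.13 for disease-associated microglia, -0.14 for homeostatic microglia, -0.01 for interferon response, -0.14 for complement and -0.03 for cytokine genes.

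Astrocyte markers were higher for 6 of 9 genes with AD (median 0.05) and for 9 of 9 without (median 0.22). Slc1a2, the main astrocytic glutamate transporter, measured 75.4 FPKM in AD and 256.3 to 469.3 in the other 8 mice, a log2 fold change of -0.26 with AD and 0.20 without. Genes of reactive astrocytes and tissue injury had a median of 0.07 (11 of 17 higher, without AD 0.02), with Gfap at 0.47 (95% interval -0.30 to 1.24, without AD 0.27) and Vim at 0.50 (without AD 0.26). Markers of oligodendrocytes and their precursors summed to 3047 FPKM in O and to 1439 to 2132 in the others, with 8 of 11 higher (median 0.17, without AD 0.34). Mobp, a myelin protein gene, had 227.8 ± 55.4 FPKM against 161.8 ± 11.6 (0.46, without AD 0.52, unadjusted p under 0.05) and was 0.37 in the contralateral hemispheres. Endothelial markers were lower for 8 of 9 genes (median -0.27, without AD -0.19), with Cldn5, a tight junction protein, at -0.27 in both and between -0.48 and -0.04 over the fits that leave out 1 mouse. Mural cell and fibroblast genes had a median of -0.02 (without AD -0.12). In that list the pericyte marker Rgs5 was -0.34 (without AD -0.25), and Igf2, a growth factor of the meninges and the choroid plexus, was 0.82 (without AD 0.71, unadjusted p under 0.05). Aqp1, a water channel of the choroid plexus, was 1.06 (without AD 1.05, unadjusted p under 0.05), with 3.66 FPKM in K, 6.21 in N and 1.86 in AD against 0.14 to 0.62 in the other 6 mice. Of the red blood cell genes, Hbb-bs, Hbb-bt, Hba-a1 and Hba-a2 were listed at 0 in all 9 libraries, and Alas2 was 0.63 (without AD 0.33). Leukocyte markers had a median of 0.21 over 5 tested genes, and -0.11 without AD.

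Several housekeeping lists were higher after R33 with AD and near 0 without it. Cytosolic ribosomal protein genes, with a median length of 821 bp, were higher for 85 of 93 (median 0.19), and for 46 of 93 without AD (median 0.00). Nuclear genes of oxidative phosphorylation were higher for 91 of 93 (median 0.13), and for 47 of 93 without AD (median 0.00). Proteasome genes were higher for 36 of 37 (median 0.09), and for 20 of 37 without AD (median 0.00). Within oxidative phosphorylation, the tissue-restricted subunit genes Cox6b2 (0.66, without AD 0.61) and Cox8b (0.77, without AD 0.76) kept their size and had an unadjusted p under 0.05. Cox8b was highest in K at 2.90 FPKM and N at 3.26, the mice with most choroid plexus RNA. Unfolded protein and heat shock genes had a median of 0.06 (without AD 0.00, and -0.02 with the length trend removed), and hypoxia genes a median of 0.00 (without AD -0.06). Of the latter, Hmox1, which encodes heme oxygenase, had 64.4 FPKM in AD and 4.92 to 19.5 in the other 8 mice. Of the 15 tested genes of cholesterol synthesis and export 6 were higher and 9 lower (median -0.02, without AD 0.00). Only 3 of 14 cell cycle genes were tested, with a median of 0.13 (without AD -0.02). Striatal, hippocampal and thalamic markers had medians of 0.08, -0.08 and -0.05, and without AD 0.13, 0.19 and -0.05.

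**Figure D5:**
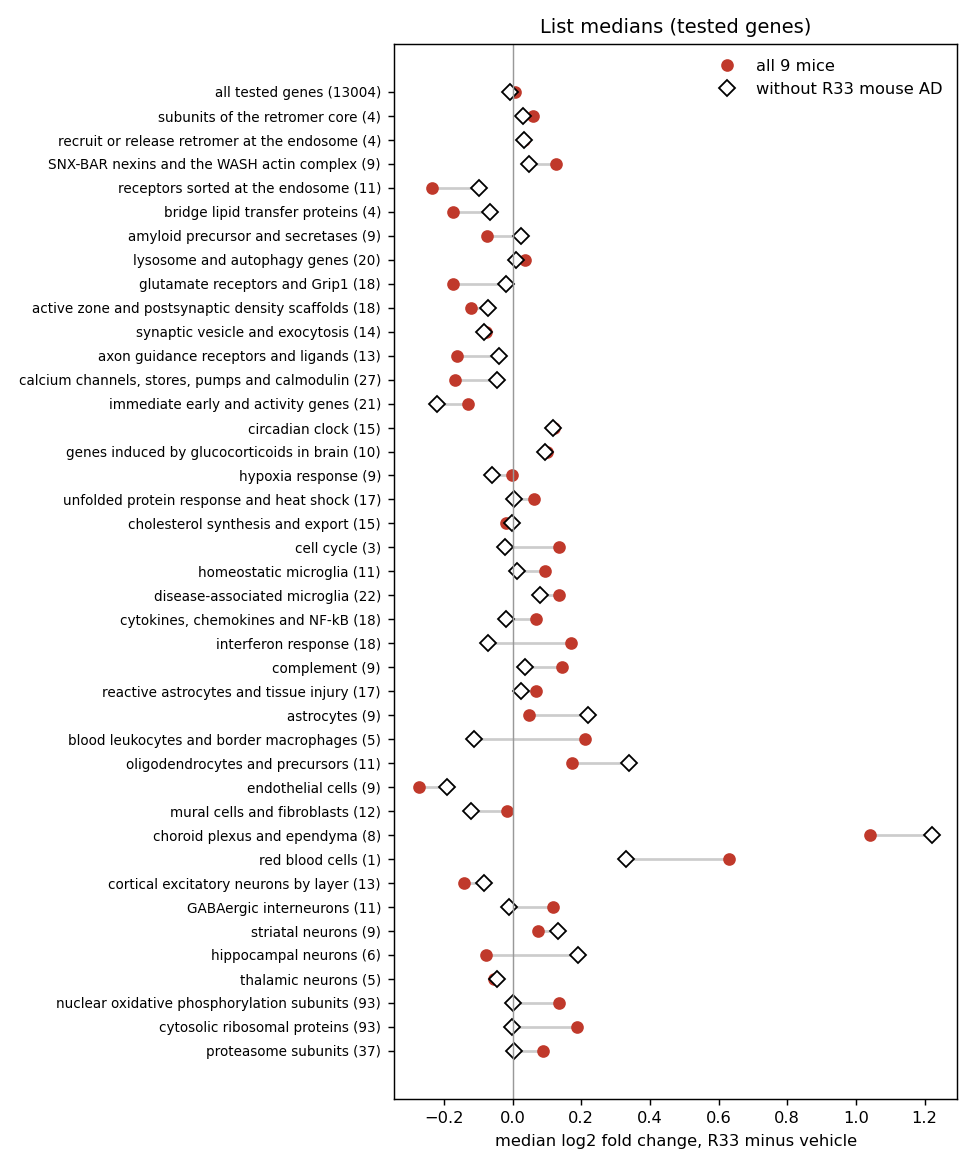
Median log2 fold change, R33 minus vehicle, over the tested genes of each list (their number in brackets), red points with all 9 mice and open diamonds without AD. The median over all tested genes is 0.01, and ribosomal, oxidative phosphorylation, proteasome and interferon lists move from above it to 0.00 or below without AD.

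A few key genes remain, and those below the filter were tested singly. Il1b, an inflammatory cytokine, had a mean of 0.68 FPKM and a difference of 0.11 on the log2 scale (exact permutation, two-sided, p = 0.5952, and 0.5952 adjusted over 2 genes). Vgll2, a transcription cofactor, had a mean of 0.0449 FPKM, which is a few fragments per library, and a difference of -0.07 (exact permutation, two-sided, p = 0.03175, and 0.06349 adjusted over 2 genes). Over all groupings of the 9 mice into 5 and 4 the smallest p possible is 0.007937. Col25a1, a collagen found in amyloid plaques, passed the filter at -0.04 (95% interval -0.95 to 0.87, without AD 0.22, and -0.42 to 0.22 over the fits that leave out 1 mouse), with 16.7 FPKM in O against 2.02 to 6.91 in the others. Ier2 was -0.10 (without AD -0.31).

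The contralateral hemispheres gave the same contrast in tissue that received no injection, in 4 R33 and 4 vehicle mice (no contralateral library of AE was used). They come from the same mice, so they are no independent repeat. The contralateral library of AD had a Spearman correlation of its deviation with length of -0.512, and the others ran from -0.25 in J to 0.25 in AH. Contralateral differences are given only with AD and with the length trend in place. In these hemispheres too 0 of 13004 genes were called (0%), with 227 higher and 156 lower at an unadjusted p under 0.05. An interaction term tested whether the R33 difference itself differed between hemispheres, and 0 of 13004 genes were called (0%, smallest adjusted p = 1), with 9 higher and 25 lower at an unadjusted p under 0.05. In the 8 mice that have both hemispheres, and with each mouse treated as a replicate block, 59 were higher and 55 lower, and 0 were called. Acaa2 was 0.49 near the injection and 0.14 contralaterally, Ggh 0.39 and 0.06, and Slc31a1 0.35 and 0.05. Slc7a4 was -0.24 and -0.21, Lrp1 -0.29 and -0.44, and the median of the sorting receptors -0.23 and -0.16. For none of these 5 genes did the difference between hemispheres pass the test, and list medians have no test. The letters of the labels form 2 kinds, and the groups differ in their share of them (3 of 5 R33 and 3 of 4 vehicle mice have 1 letter). In the mice with 1 letter the interferon response median was -0.19, the clock median 0.23, the sorting receptor median -0.07 and Lrp1 -0.07. In those with 2 letters, AE, AD and the single vehicle mouse AH, they were 0.66, -0.17, -0.46 and -0.74 without a test. Nqo1 was 0.65 and 0.63 in these subsets and Nwd2 -0.38 and -0.47, but genes chosen for non-overlap keep their sign in any subset.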

How the data were processed

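RNA was measured in 1 block of cortex per hemisphere of each mouse. The authors prepared stranded libraries of polyadenylated RNA, used HISAT2 for alignment of the paired reads to GRCm39, and the deposited unit is FPKM, for 26264 gene symbols in 32 libraries. The counting tool and its strand setting are not given in the sources used here. Libraries were grouped by the treatment and hemisphere of their labels. Of the 32 libraries, 27 were used and 5 were not used here, and 32 leftover header lines were dropped. Each of the 22013 genes with a value above 0 held whole multiples of 1 fragment (100% of genes within 0.01), so fragments per library were recovered.

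The comparison used limma 3.58.1 in R 4.3.3 on log2(FPKM + 1) for genes whose mean in the 9 libraries reached 1 FPKM, with empirical Bayes moderation and an intensity trend, two-sided, with Benjamini-Hochberg adjustment over all 13004 tested genes. The plan covered counts and FPKM, and the FPKM branch was used. Differences between hemispheres were fitted as an interaction over 17 libraries without the mouse as a term. Deviations of the hemispheres of 1 mouse from their group correlated with Pearson's r between 0.030 and 0.646 across genes, so a fit with the mouse as a replicate block was added. AE has no contralateral library in it. Single values were compared by two-sided exact permutation over all groupings of the mice. Lists have no test and are described by counts and medians beside those of all tested genes.

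Named genes are those called, up to 10 per direction with the largest log2 fold change among genes without overlap and with an unadjusted p under 0.05, up to 4 most abundant genes per list, and 30 key genes. Other names were chosen after their values were seen. Some single genes are not reported here. The comparison, the 40 lists and their members were chosen with earlier results of these data known. Positions are from GENCODE M39 on GRCm39, found by symbol for 12670 tested genes.

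Alternatives were another pseudocount, other filters, median-of-ratios scaling, limma voom on recovered fragments, no intensity trend, more libraries in the fit, the kind of mouse label as a covariate or as a selection, removal of a lowess trend on gene length (span 0.3), and each mouse left out. The fit was checked on simulated data, and the outcome of that check is not reported here. The rest was done in Python 3.11.15 (pandas 2.3.3, numpy 2.4.6, matplotlib 3.10.9, scipy 1.17.1).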

Additional observations from a re-analysis of the deposited data

Results flagged for a closer look

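In 180 groups of 4 or 5 mice, 31 held a mouse far from the others of its group (its gap to the nearest one, over the range of the group, above Dixon's 95% critical value), where chance gives about 1 in 20. Of these, 18 fell on R33 mouse AD. Over all tested genes AD had a median absolute deviation of 0.264, against 0.0693 to 0.112 in the other R33 mice, and a Spearman correlation of its deviation with gene length of -0.681. The other values are means of log2(FPKM + 1) over a list, or a gene's own value. AD was low among the R33 mice for sorting receptors (2.80), amyloid precursor and secretases (4.14), glutamate receptors (3.22), axon guidance (1.99) and calcium genes (4.69). It was high for hypoxia (4.36), cell cycle (2.40), oxidative phosphorylation (6.87), ribosomal protein (7.10) and proteasome genes (6.04). Among single genes AD was low for Cacna1c (1.87), Cacna1e (2.58) and Sorl1 (4.02), and high for Pxmp2 (3.04), Snx3 (7.38) and Dusp1 (4.50).

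Other R33 mice stood apart less often. AE was low for the retromer core (4.90, the other R33 mice 5.03 to 5.07) and for Vps29 (4.86). O was low for synaptic vesicle genes (7.80) and high for thalamic markers (3.33) and Grip1 (2). N was high for striatal markers (5.09). Among vehicle mice, L was low for complement (3.83) and ribosomal protein genes (6.12) and high for oligodendrocyte (6.24) and striatal markers (4.48). J was high for thalamic markers (4.28) and Nwd2 (2.91), and AH was low for Cacna1d (2.18).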

How the results depend on the processing

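In limma 0 genes were called in every fit run of the injected hemisphere and of the difference between hemispheres, so counts at an unadjusted p under 0.05 are given, higher and lower. Against 108 and 49, they were 210 and 197 without a filter (21069 genes tested), 57 and 28 at a mean of at least 5 FPKM (8823 genes tested), 161 and 83 with all 14 injected libraries, 417 and 348 with all 27 libraries and additive factors, 105 and 111 in the mice with 1 letter, 148 and 84 with the length trend removed, and 180 and 100 with that trend removed and AD left out. Library weights estimated by limma, in which AD had 0.156, gave 164 and 146. This and the fit before it were chosen after seeing the data. With each mouse left out in turn the counts ran from 59 to 257 higher and from 24 to 119 lower. The extremes were 257 and 89 without K, 59 and 61 without M and 60 and 24 without L, and AD, O and AH moved the lower count over 1.5 times as well (119, 106 and 88). Pseudocount 0.1 (111 and 46), median-of-ratios scaling (115 and 54), voom (91 and 51), no intensity trend (109 and 49) and the label covariate (120 and 51) kept both counts within 1.5 times. For the difference between hemispheres, 9 higher and 25 lower became 33 and 33 with the length trend removed. With the mouse as a replicate block, a fit that also leaves out AE, the counts were 59 and 55. Without AE and without the block they were 11 and 14. Leaving out each mouse gave 7 to 23 higher and 9 to 97 lower, with 23 and 97 without N, 16 and 94 without AD, 7 and 9 without O, 22 and 26 without L, 16 and 22 without K, 11 and 14 without AE, 11 and 15 without M and 11 and 48 without AH. The cause was not tested. Of 878 values of the 40 list medians 877 moved by less than the spread between mice, the exception being unfolded protein and heat shock genes with the length trend removed (-0.02). Of 3715 values of the 170 named genes not chosen for non-overlap, 6 moved further. Leaving out 1 mouse can hardly move a value by as much as the spread between mice, and that spread includes AD. These counts therefore show little about stability. The 18 genes chosen for non-overlap were chosen so that leaving out mice cannot turn their sign, which shows no stability, and Scarna2 was -0.28 with all 27 libraries. Many small differences change sign. Without AD 41 of these 170 genes and 8 of the 40 list medians had another sign, and 83 and 15 did so in at least 1 of the fits that leave out a mouse. Depth limits short or rare RNAs most, since 1 fragment on 2000 bp is 0.01755 FPKM.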

Other observations

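Other genes of oxidative metabolism had higher means after R33, in lists that were chosen after the values were seen and so have no test. Over all tested genes 52.7% were higher (46.6% without AD), and 0.831% were higher with an unadjusted p under 0.05. Of 13 tested antioxidant and glutathione genes that the transcription factor Nrf2 is known to induce, 13 were higher with a median log2 fold change of 0.22, and 12 without AD (median 0.14). Nqo1, described with the comparison, is one of them. Txnrd1, the cytosolic thioredoxin reductase, had 17.7 ± 1.84 FPKM after R33 (SD, n = 5) and 14.9 ± 0.90 after vehicle (SD, n = 4), a log2 fold change of 0.23 (without AD 0.17). The subunit genes of glutathione synthesis differed less, with Gclm at 0.13 and Gclc at 0.02. In the contralateral hemispheres the median of the list was 0.07.

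All 19 genes of fatty acid oxidation were higher (median 0.23), and 18 of 19 without AD (median 0.17), with 7 at an unadjusted p under 0.05. These 7 include Acaa2, which was already named above for its non-overlap. Acadl, the long-chain acyl-CoA dehydrogenase, had 25.4 ± 4.61 FPKM against 20.2 ± 1.74 (0.30, without AD 0.22). Cpt2, which frees acyl groups from carnitine in the mitochondrial matrix, was 0.31 (without AD 0.29), and Etfb, an electron carrier of these dehydrogenases, 0.36 (without AD 0.22). Of the 17 genes of the breakdown of branched amino acids and lysine, 17 were higher (median 0.16), and 15 without AD (median 0.12). In that list Acad8, the isobutyryl-CoA dehydrogenase of valine breakdown, was 0.31 (without AD 0.29) and Aass, the first enzyme of lysine breakdown, 0.29 (without AD 0.30). Both had no overlap between groups, as had 0.277% of all tested genes in the higher direction, and both are counted in the list. The medians of these lists in the contralateral hemispheres were 0.14 and 0.12, against 0.03 over all tested genes there. Astrocytes are rich in many of these transcripts, and astrocyte markers were higher for 6 of 9 genes (median 0.05), and for 9 of 9 without AD (median 0.22). Their part in these values was not tested.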
